A study of Homo sapiens with 2 samples.

Results

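The genes of the m6A writer were followed in ACHN, a human cell line long established from a renal cell carcinoma. The set held 9 genes, chosen by name as subunits of the m6A methyltransferase and its regulatory partners, and all 9 were found among the 12014 protein-coding genes listed for the series. One library came from cells infected with a lentivirus carrying an shRNA against KIAA1429 (shKIAA1429), and the other from cells infected with a control shRNA (shNC). Per the study's methods, both were puromycin-selected stable lines. The sample labels call the first a knockout of KIAA1429, whereas the methods describe a knockdown, and which of the KIAA1429 shRNAs was sequenced is not given in the sources used here. With 1 library per group there was no replicate, so no test was run, and every difference below compares these libraries and not the conditions. KIAA1429 is written VIRMA, its current symbol.

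N6-methyladenosine (m6A) is a methyl mark on adenosines inside mRNA, and it bears on the splicing, export, translation and decay of the transcripts that carry it. It is placed in the nucleus by a multi-subunit writer. METTL3 holds the active site, METTL14 binds the RNA beside it, and WTAP tethers this pair to a larger set of associated proteins that includes VIRMA, ZC3H13, CBLL1 (also called HAKAI), RBM15 and RBM15B. VIRMA serves as a scaffold and is linked to methylation near stop codons and in the last exons of mRNAs. METTL16 is a separate m6A methyltransferase that acts on the U6 spliceosomal RNA and on hairpins of the mRNA of MAT2A, which makes the methyl donor S-adenosylmethionine (SAM).

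With shKIAA1429, 7 of the 9 writer genes stood above their shNC level and 2 stood below it, and all of these differences lay within the range of other genes of like level. VIRMA, the gene targeted by the shRNA, was at 82.1% of its control level. METTL16 was lower still, at 69.1%. The catalytic subunits METTL3 and METTL14 were at 123% and 115%, WTAP was at 127%, and RBM15B was at 134%, the highest of the set. Among all genes with a mean of at least 1 FPKM, 57.3% were higher in the shKIAA1429 library. FPKM counts sequenced fragments, scaled by transcript length and by library size.

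The upstream sequences of 4 writer genes are shown because these genes span the range of the changes: METTL3 as the catalytic subunit, METTL16 and RBM15B as the lowest and highest change, and RBM15 as the relative of RBM15B that changed least. Each is the 250 bases before a gene start in RefSeq (GRCh38.p14), read 5′ to 3′ on the strand of the gene. They lie at chr14:21511341-21511590 (minus strand), chr17:2511889-2512138 (minus strand), chr3:51391035-51391284 (plus strand) and chr1:110339127-110339376 (plus strand). Capitals mark matches on either strand to CACGTG (an E-box), CCAAT (the NF-Y motif), GGGCGG (a GC box) and CCGGAA (the core of many ETS factor sites), letters that were chosen after the sequences had been seen. Neighbouring GC boxes overlap in the RBM15B window.
METTL3: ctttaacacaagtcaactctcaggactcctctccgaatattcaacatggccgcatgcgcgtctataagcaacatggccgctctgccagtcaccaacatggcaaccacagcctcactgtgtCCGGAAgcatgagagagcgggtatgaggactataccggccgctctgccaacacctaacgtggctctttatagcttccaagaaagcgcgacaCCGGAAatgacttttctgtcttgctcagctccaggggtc
METTL16: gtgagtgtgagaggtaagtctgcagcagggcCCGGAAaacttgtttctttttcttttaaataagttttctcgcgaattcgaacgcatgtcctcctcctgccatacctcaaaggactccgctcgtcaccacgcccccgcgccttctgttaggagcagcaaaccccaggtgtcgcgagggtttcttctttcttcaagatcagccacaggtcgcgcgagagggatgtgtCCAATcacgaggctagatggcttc
RBM15B: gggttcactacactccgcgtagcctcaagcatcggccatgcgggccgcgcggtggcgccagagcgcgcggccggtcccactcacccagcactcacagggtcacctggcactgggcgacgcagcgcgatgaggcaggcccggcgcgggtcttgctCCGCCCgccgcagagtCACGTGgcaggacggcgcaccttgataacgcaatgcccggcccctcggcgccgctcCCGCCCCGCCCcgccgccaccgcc
RBM15: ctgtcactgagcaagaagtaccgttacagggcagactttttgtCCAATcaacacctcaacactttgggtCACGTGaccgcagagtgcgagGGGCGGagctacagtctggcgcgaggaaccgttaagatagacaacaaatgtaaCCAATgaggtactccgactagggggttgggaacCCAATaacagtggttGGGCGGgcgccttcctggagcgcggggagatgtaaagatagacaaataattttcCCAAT

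The RefSeq windows matched 8 of the 9 genes, with 9 windows in all, 2 of them for WTAP. VIRMA had no entry. CCGGAA was found upstream of 5 of the 8 genes: METTL3, METTL14, ZC3H13, CBLL1 and METTL16. It stood in 14.5% of all 35116 windows of this length. CACGTG was found upstream of RBM15 and RBM15B alone among the 8, and in 6.34% of all windows. CCAAT was present for 6 of the 8 genes, with 4 matches in the RBM15 window and 0 in the RBM15B window, and in 32.0% of all windows. GGGCGG was found for 4 of the 8 genes and in 42.6% of all windows. RBM15 and RBM15B thus both hold these E-box letters but differ in base composition, with 51.6% and 74.8% G and C. METTL16, which was lower, held both CCAAT and CCGGAA, as did METTL14, ZC3H13 and CBLL1, which were higher. A match describes letters in this window and is not evidence of a bound factor.

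VIRMA (ENSG00000164944.11_3) spans bases 95499921 to 95565757 of chromosome 8, minus strand. Positions of genes are those of the files and match GRCh37. VIRMA stood at 3.92 FPKM in the shNC library and at 3.22 FPKM in the shKIAA1429 library. Unless a ratio between genes or another setting is named, changes are the difference in log2(FPKM + 1), shKIAA1429 minus shNC. For VIRMA this was -0.22, whereas the log2 ratio of the plain values was -0.28. On this scale low values give smaller changes than their plain ratio. To describe how far genes of like level differed between the libraries, each gene was set beside the 500 genes nearest to it in mean level. For VIRMA, the central 95% of these ran from -0.75 to 0.82, and 96 of the 500 had a lower change. The change of the targeted gene therefore lay within the range of genes of its level. It was -0.08 when both libraries were brought to the same FPKM sum, where the median of all genes was 0.21. After the trend with GC content and length was subtracted it was -0.36. VIRMA overlapped 0 other listed genes. The study reports that its shRNAs reduced KIAA1429 mRNA and protein in ACHN cells, measured by RT-qPCR and western blot.

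**Figure D1:**
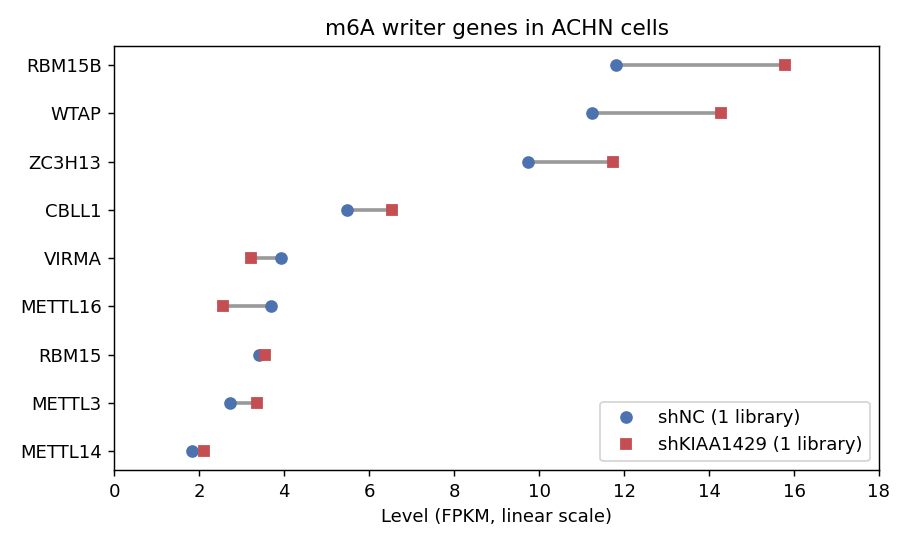
Level of each m6A writer gene in FPKM (linear axis from 0) in the shNC library (circles) and the shKIAA1429 library (squares), 1 library each, ordered by the shNC level. VIRMA and METTL16 are the genes whose square lies to the left of the circle, and RBM15B has the highest level in both libraries.

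The catalytic core was present at low levels. METTL3 (chromosome 14, 21966277 to 21979517, minus strand) was at 2.73 FPKM with shNC and 3.36 FPKM with shKIAA1429, a log2 change of 0.23. METTL14 (chromosome 4, 119606523 to 119636588, plus strand) was at 1.83 FPKM and 2.10 FPKM, a log2 change of 0.13. METTL14 was the least abundant writer gene in both libraries. METTL3 and METTL14 form a heterodimer in the writer, and the ratio of their mRNAs was 1.49 with shNC and 1.60 with shKIAA1429. METTL3 overlaps TOX4 on the opposite strand by 1043 bases at its 3′ side, and TOX4 had a log2 change of 0.16.

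WTAP, the adaptor, spans bases 160146617 to 160177351 of chromosome 6, plus strand. It was measured at 11.3 FPKM with shNC and 14.3 FPKM with shKIAA1429, a log2 change of 0.32. WTAP thus stood 4.13 times above METTL3 with shNC and 4.25 times above it with shKIAA1429. The position of WTAP falls inside the span of SOD2, a mitochondrial superoxide dismutase gene on the opposite strand, which was at 0.835 and 2.18 FPKM. The libraries were made with a strand-marking protocol, but whether the counting used strand is not given in the sources used here. The sum of WTAP and SOD2 had a log2 change of 0.42, a value computed after the overlap was seen.

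Among the associated subunits other than VIRMA, all 4 were higher in the shKIAA1429 library. Of all genes with a mean of at least 1 FPKM, 57.3% were higher, and their median log2 change was 0.06. RBM15, at 0.04, lay below that median. ZC3H13, a zinc finger protein that helps to hold the complex in the nucleus (chromosome 13, 46528600 to 46626894, minus strand), was at 9.73 FPKM with shNC and 11.7 FPKM with shKIAA1429, a log2 change of 0.25. CBLL1, a RING finger protein with E3 ubiquitin ligase activity (chromosome 7, 107384142 to 107402112, plus strand), was at 5.48 and 6.53 FPKM, a log2 change of 0.22. These changes resembled those of METTL3 and WTAP in size.

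RBM15 and RBM15B are related RNA-binding proteins that bring the writer to its target transcripts. RBM15 (chromosome 1, 110881128 to 110889303, plus strand) was at 3.41 FPKM with shNC and 3.55 FPKM with shKIAA1429, a log2 change of 0.04. RBM15B (chromosome 3, 51428699 to 51435339, plus strand) was at 11.8 and 15.8 FPKM, a log2 change of 0.39. RBM15B was the more abundant of the pair in both libraries, by 3.46 times with shNC and by 4.46 times with shKIAA1429. RBM15B overlaps DCAF1 on the opposite strand by 2042 bases, and DCAF1 had a log2 change of -0.04.

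METTL16, the separate enzyme, spans bases 2308856 to 2415185 of chromosome 17, minus strand. It was measured at 3.69 FPKM with shNC and 2.55 FPKM with shKIAA1429, a log2 change of -0.40, and 34 of the 500 genes nearest in level had a lower change. METTL16 was the only writer gene that overlapped a listed gene on the same strand. That gene, AC006435.1 (chromosome 17, 2310279 to 2318731), lies wholly within METTL16 and was at 0.10 FPKM with shNC and 0.622 FPKM with shKIAA1429. The 2 genes summed had a log2 change of -0.20, a value computed after the overlap was seen. Each FPKM value is scaled by the length of its own gene, so this sum is not a recount of METTL16, and how fragments of the shared stretch were assigned was not tested. MAT2A, whose mRNA METTL16 methylates, was at 85.8 and 73.6 FPKM, a log2 change of -0.22.

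**Figure D2:**
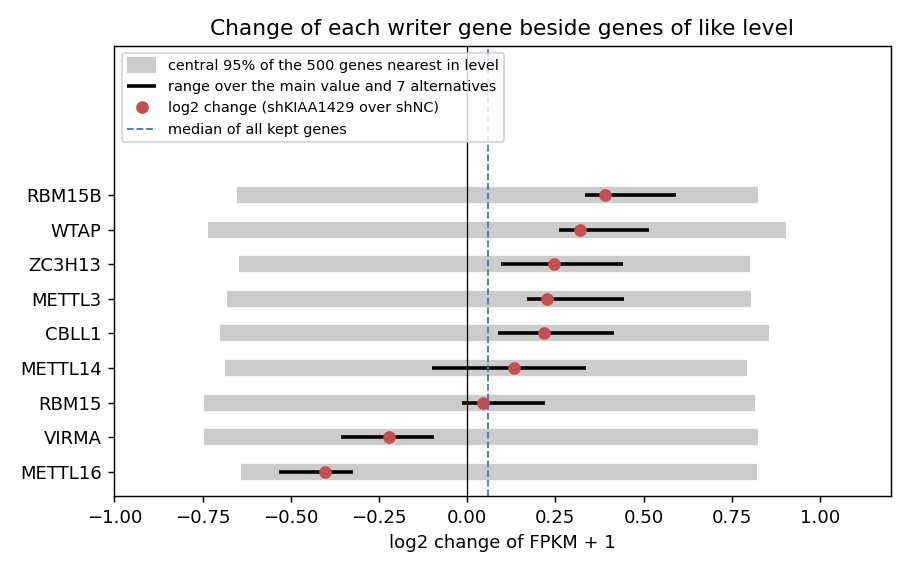
Points give the log2 change of FPKM + 1 of each writer gene (shKIAA1429 over shNC), grey bars the central 95% of the changes of the 500 genes nearest in level, and black lines the range over the value reported and 7 other ways of processing. All 9 points lie inside their grey bars, and the lines of VIRMA and METTL16 stay below 0.

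Read against all genes, 0 of the 9 writer genes passed a log2 change of 1.5 in either direction. Of the 10702 genes with a mean of at least 1 FPKM, 0.635% did. The study's methods name this limit for DESeq2, together with a limit on P. Here it was applied to log2(FPKM + 1) without a test. At a limit of 1, 0 writer genes passed, against 2.5% of all genes. At a limit of 0.5, 0 writer genes were higher, against 9.9% of all genes, and 0 were lower, against 6.12%. The median log2 change of the 9 genes was 0.22, with a range from -0.40 to 0.39, and that of all genes was 0.06. The change of each of the 9 lay within the central 95% of the 500 genes nearest to it in level. Of all genes, 18.9% had a lower change than VIRMA and 9.10% a lower change than METTL16, while 84.6% had a lower change than RBM15B. Together the writer genes summed to 53.8 FPKM with shNC and 63.1 FPKM with shKIAA1429, or 117% of the control.

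The order of the levels shifted in the middle of the set. With shNC it was RBM15B, WTAP, ZC3H13, CBLL1, VIRMA, METTL16, RBM15, METTL3 and METTL14, from the highest to the lowest, over a 6.45-fold range. With shKIAA1429 the first 4 and the last held their places, and those between read RBM15, METTL3, VIRMA and METTL16, over a 7.51-fold range. VIRMA thus went from rank 5 to rank 7, and its share of the summed FPKM of the set from 7.28% to 5.10%. The share of METTL16 went from 6.86% to 4.04%. Without replicates, which neighbours in this order differ beyond their spread cannot be said. Compared with all 12007 gene symbols listed, METTL14 was above 22.8% of genes with shNC and RBM15B above 76.7%, so the set ran from the low to the upper range of expressed genes.

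The ratio of VIRMA to another gene of the same library does not depend on how the library was scaled. VIRMA stood at 1.44 times METTL3 with shNC and at 0.957 times METTL3 with shKIAA1429, so that the ratio was at 66.6% of its control value. Against METTL14 the ratio was at 71.5%, against WTAP at 64.7%, against ZC3H13 at 68.1%, against CBLL1 at 68.9%, against RBM15 at 78.9% and against RBM15B at 61.3%. VIRMA was lower relative to 7 of the 8 other writer genes, and METTL16 was the exception, at 119%. All of these ratios, and those to reference genes below, share the same VIRMA value, and 18.9% of all genes had a lower change than VIRMA. The median log2 change of these 8 ratios was -0.55. Ratios here and below used plain FPKM, and with FPKM + 1 in each of the 8 the median was -0.44.

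Reference genes gave a less uniform picture. Relative to 15 genes often used as references, the median log2 change of VIRMA was -0.29, and VIRMA was lower relative to 13 of the 15. Relative to GAPDH, the internal control of the study's RT-qPCR, VIRMA was at 102% of its control ratio, and relative to ACTB it was at 97.6%. Relative to TBP, a general transcription factor gene, it was at 81.8%, and relative to HPRT1, a purine salvage gene, at 69.9%. GAPDH and ACTB were themselves lower in the shKIAA1429 library, with log2 changes of -0.31 and -0.25. TFRC, the transferrin receptor gene, was far from the other references, at 3.11 FPKM with shNC and 11.4 FPKM with shKIAA1429, and the ratio of VIRMA to it was at 22.5%. The size of the VIRMA difference thus depended on the gene it was set against.

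**Figure D3:**
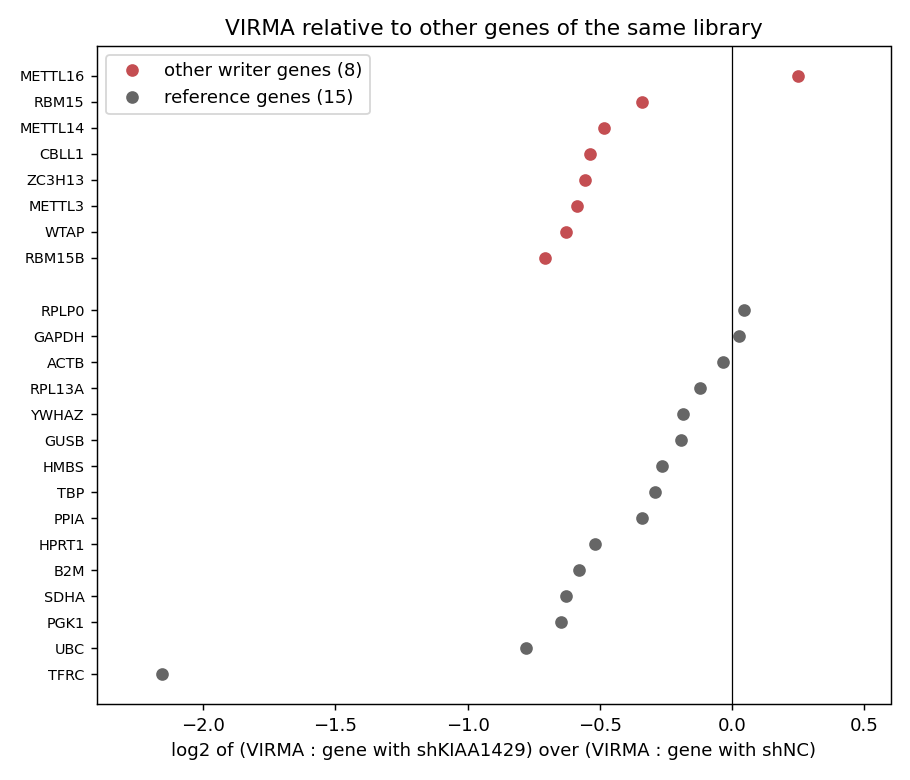
Log2 change of the ratio of VIRMA to each other gene of the same library (shKIAA1429 over shNC), for the other 8 writer genes and 15 reference genes. Points left of 0 mean less VIRMA relative to that gene with shKIAA1429; METTL16, RPLP0 and GAPDH lie to the right of 0, and TFRC lies farthest to the left.

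The 5 genes most like VIRMA, by the distance between the log2 of (FPKM + 1) in both libraries, were CBS, ETNK2, OSGEPL1, SOGA1 and CRYBG1. CBS was the nearest, at 3.93 FPKM with shNC and 3.22 FPKM with shKIAA1429. With only 2 libraries, this likeness says that these genes had the same level and the same change, and no more.

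In sequence the writer genes had no single profile. The longest coding transcripts in GENCODE 29 ranged from 2015 bases for METTL3 to 8018 bases for ZC3H13, against a median of 3368 over all genes with a mean of at least 1 FPKM. Their G and C content ranged from 38.4% for METTL14 to 55.9% for RBM15B, against a median of 48.5%. GGACT, the DNA letters of the m6A core motif GGACU, was counted on the sense strand of these transcripts. METTL3 held it 4 times, or 1.99 times per kilobase, VIRMA 10 times, or 1.53 per kilobase, and METTL16 3 times, or 0.525 per kilobase, against a median of 0.927. These letters mark places where the motif stands and not methylated sites, since m6A was not measured in these libraries. RBM15B has 1 coding transcript in GENCODE 29, whereas WTAP and RBM15 have 5 each.

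The rest of the m6A pathway was read in lists written by hand. Of 13 genes of m6A readers, proteins that bind the mark or RNA opened up by it, 12 had a mean of at least 1 FPKM, and 8 of these were higher and 4 lower with shKIAA1429. The median log2 change of the readers was 0.05, next to 0.06 for all genes, of which 57.3% were higher. Of all genes, 6.12% lay below -0.5. Below -0.5 stood RBMX (31.4 and 18.3 FPKM, log2 change -0.75), YTHDF3 (5.57 and 3.34 FPKM, log2 change -0.60) and HNRNPC (75.7 and 52.2 FPKM, log2 change -0.53). RBMX and HNRNPC are nuclear RNA-binding proteins, and YTHDF3 is a cytoplasmic reader. The paralogues of YTHDF3 lay on the other side of 0, with log2 changes of 0.13 for YTHDF1 and 0.22 for YTHDF2. The highest reader was HNRNPA2B1, at 82.5 and 107 FPKM, a log2 change of 0.38.

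Both erasers, the demethylases that remove the mark, were lower, whereas 57.3% of all genes were higher. ALKBH5 was at 19.2 FPKM with shNC and 14.4 FPKM with shKIAA1429, a log2 change of -0.39, and FTO was at 1.62 and 1.39 FPKM, a log2 change of -0.13. Of 5 genes for other m6A and m6Am enzymes, 3 were higher and 2 lower, with a median of 0.02. ZCCHC4, which methylates 28S ribosomal RNA, was the highest of these at 0.35, and METTL5, which methylates 18S ribosomal RNA, was the lowest at -0.09.

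The SAM cycle supplies the methyl group and clears the by-product of the reaction. Of its 8 genes 2 were higher and 6 lower, with a median log2 change of -0.18. Of all genes, 57.3% were higher, and their median was 0.06. In this list 2 genes lay below -0.5, against 6.12% of all genes. AHCY, which hydrolyses S-adenosylhomocysteine, the product inhibitor of methyltransferases, was at 58.9 FPKM with shNC and 40.5 FPKM with shKIAA1429, a log2 change of -0.53. With each library rescaled to a sum of 1000000 the median of this list was -0.01, against 0.24 for all genes. At the other end stood MTR, the methionine synthase gene, at 0.25. Of the partners of WTAP and relatives of RBM15, SPEN had a log2 change of 0.47, BCLAF1 of 0.22 and THRAP3 of -0.16. In every one of these lists, 0 genes passed 1.5 in either direction.

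**Figure D4:**
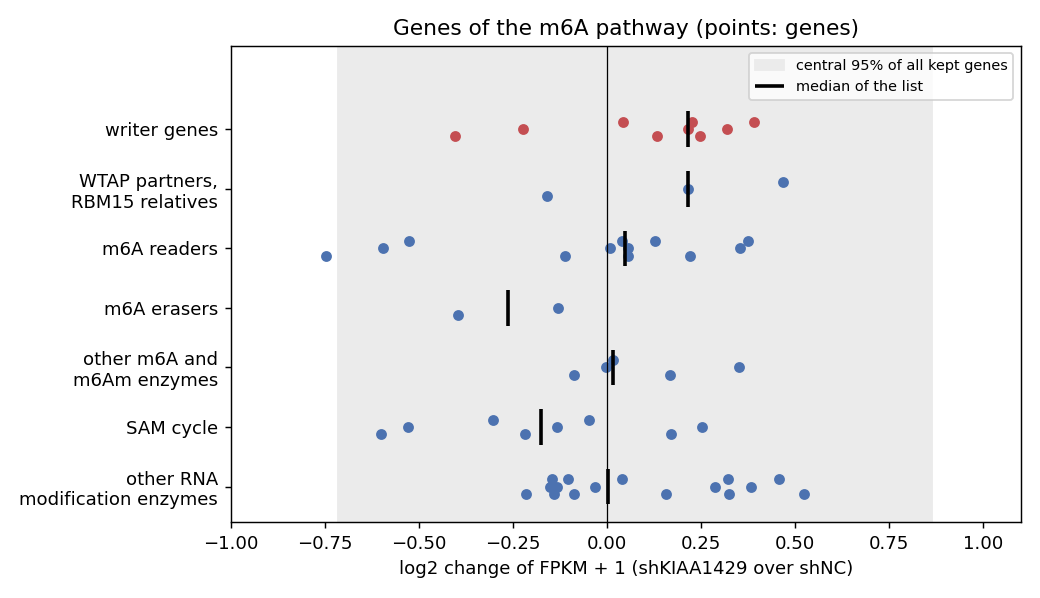
Log2 change of FPKM + 1 (shKIAA1429 over shNC) of each gene with a mean of at least 1 FPKM in 7 lists, with the median of each list as a black bar and the central 95% of all genes in grey. The writer genes in red lie between -0.40 and 0.39, and RBMX among the readers lies below the grey area.

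Of 8 markers of renal tubular epithelium and renal cell carcinoma, 7 were listed. PAX8, a renal lineage factor, was at 64.7 FPKM with shNC and 104 FPKM with shKIAA1429, and PAX2, a related factor, at 31.4 and 39.3 FPKM. KRT8, KRT18, MET and VIM, further markers of this list, were each above PAX2 in both libraries. Of the 7 markers of other cells, 2 were listed: COL1A1, at 1.08 and 1.62 FPKM, and EPCAM, an epithelial adhesion gene, at 32.8 and 23.1 FPKM. The markers of leukocytes, endothelium and hepatocytes were not analysed here. In bulk RNA, fewer cells that express a gene and less RNA per cell cannot be told apart. The FPKM of all listed genes summed to 283046 with shNC and 249409 with shKIAA1429, and the 13 mitochondrial genes made up 42.2% and 34.6% of these sums. When both libraries were brought to the mean of these sums, a setting added after seeing the data, the median log2 change of all genes went from 0.06 to 0.21. Relative to that median, VIRMA at -0.08 and METTL16 at -0.27 were still lower and RBM15B at 0.56 was higher, while RBM15, at 0.19, was just below it.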

How the data were processed

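One RNA-seq library of ACHN cells with shKIAA1429 and one with shNC were compared, grouped by the treatment labels. The authors deposited FPKM values per gene. The submitters' processing notes name cutadapt 1.9, HISAT2 2.0.4, StringTie 1.3.4d, DESeq2 and edgeR, without roles, and the genome build is not given in the sources used here; gene positions are those of GENCODE genes on GRCh37. Only FPKM values were used, the smallest above 0 being 0.00096. Without counts the depth is unknown, and no counting interval or count test can be given.

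Genes with a mean of at least 1 FPKM were kept (10702), with the row of the highest mean for 7 symbols on more than 1 row. Log2 changes used a pseudocount of 1. Transcript length, GC content and GGACT counts came from the longest coding transcript in GENCODE 29, found for 10644 kept genes (99.5%), and promoters from RefSeq. Alternatives were a pseudocount of 0.1 or none, centring, rescaled sums, no filter or a mean of at least 5 FPKM, limits of 1 and 0.5, summed rows and subtraction of medians in 10 by 10 bins of GC content and length. Rescaling to the mean sum, sums with overlapping genes and ratios to GAPDH or ACTB alone were added after seeing the data. The genes named were the 9 members, the highest and lowest of each list and those past 0.5, the 5 genes nearest VIRMA, and overlapping genes; paralogues, reference genes, MAT2A and further RNA-modifying enzymes were named after their values were seen. Some genes that this rule takes are not reported here. Members and lists were chosen with earlier results of these data known. The steps were tested on simulated data. Python 3.11.15, NumPy 2.4.6, pandas 2.3.3 and matplotlib 3.10.9 were used.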

Additional observations from a re-analysis of the deposited data

How the results depend on the processing

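A member's change was taken as moved where it shifted by more than 1 spread, which was 0.5 of the width of the central 68% of the changes in the 500 genes nearest in level. For medians of lists this spread was taken over all genes, and for counts a change by more than 1.5 times was used. Over the 7 alternatives planned, VIRMA stayed between -0.36 and -0.10 and METTL16 between -0.53 and -0.32, below 0 in each. METTL3, WTAP, ZC3H13, CBLL1 and RBM15B stayed above 0 in each, RBM15B up to 0.59. RBM15 went to -0.01 after centring and METTL14 to -0.10 after subtraction of the GC content and length trend. The median of the 9 genes ranged from 0.09, after the same subtraction, to 0.42 with sums rescaled to 1000000. The medians of all genes in these settings were 0.06 and 0.24. Of the 9 genes, 0 passed 1.5 under any alternative tried. At a limit of 0.5, RBM15B and WTAP (0.52) passed with sums rescaled to 1000000, as did 23.9% of all genes in that direction, and RBM15B passed at 0.56 with the mean sum, as did 18.2%. METTL16 passed at -0.52 with a pseudocount of 0.1, at -0.53 with none and at -0.50 with sums rescaled without mitochondrial genes, where 8.73%, 9.07% and 8.39% of all genes passed in that direction.

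The count of all genes past 1.5 was 68. It was 172 with a pseudocount of 0.1, 177 with none, 165 with sums rescaled to 1000000, 164 without mitochondrial genes in the sum, 44 with a mean of at least 5 FPKM, 268 at a limit of 1 and 1715 at a limit of 0.5. Rescaling to 1000000 also lowers the weight of the pseudocount of 1. With both libraries brought to their mean sum instead, which keeps that weight and was added after seeing the data, 76 genes passed (56 higher and 20 lower, against 41 and 27), and 69 passed without mitochondrial genes in the sum. Rescaling to 1000000 gave 133 higher and 32 lower genes. The median log2 change of VIRMA relative to the other members, -0.55, became 0.0252 relative to GAPDH alone and -0.0353 relative to ACTB alone, both chosen after seeing the data; the cause was not tested. No paired analysis was possible because each group holds only 1 library.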

Other observations

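Enzymes that place other marks on RNA were read as a comparison. Of 17 genes for m5C, pseudouridine, m7G, m1A, inosine, acetylcytidine and ribose methylation, 16 had a mean of at least 1 FPKM, of which 8 were higher and 8 lower with shKIAA1429, with a median log2 change of 0.00. DKC1, the pseudouridine synthase of box H/ACA particles, was the highest, at 12.6 FPKM with shNC and 18.6 FPKM with shKIAA1429, a log2 change of 0.52. NSUN2, which places m5C on tRNA and mRNA, was at 0.46 and PUS7, another pseudouridine synthase, at 0.38. PUS1 was the lowest, at 6.78 and 5.70 FPKM, a log2 change of -0.22. Of the other lower genes, ADARB1 and PUS10 were at -0.15, FTSJ3 at -0.14, NSUN6 at -0.13 and FBL at -0.10. Of all genes, 57.3% were higher. Both subunits of the tRNA m1A enzyme were higher, TRMT6 at 0.29 and TRMT61A at 0.32, as were those of the tRNA m7G enzyme, METTL1 at 0.16 and WDR4 at 0.32. METTL1 and WDR4, like METTL3 and METTL14, work as a catalytic subunit and its partner.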
